A study of Citrullus lanatus with 30 samples.

Results

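Flesh of watermelon fruit (Citrullus lanatus) treated with 5-azacytidine was compared with mock-treated flesh by RNA-seq. The comparison takes 6 of the 30 libraries of the series, 3 titled Mock and 3 titled 5_Aza, chosen by their titles. All 6 are labelled flesh of 20 DAP, an abbreviation usually read as days after pollination. The Mock libraries carry the genotype label Wild-type, and the treatment label of the 5_Aza libraries is spelled 5-zazcytidine. No dose, solvent, route or duration is labelled, and the cultivar label (97103) is present on the other 24 libraries but not on these 6. The titles of the context libraries used here are PD, with 2 libraries of flesh at 0 DAP, and SW, BW, CT and RF, with 3 each at 5, 10, 20 and 30 DAP in that order. Rind is represented by R4_CT (20 DAP), R4_RF (30 DAP) and R2_RF (30 DAP), each with 2 libraries. Their source label is rind although their tissue label is flesh, and R2 and R4 are not explained. Nothing in the labels states that replicates are different fruits, so p-values describe the spread of these libraries, possibly a technical one.

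Methylation of cytosines in plant DNA is kept up by several enzyme families, MET1 at CG sites, chromomethylases at CHG sites and the DRM enzymes, guided by small RNAs, at other sites. Methylated promoters and transposons are usually silent. 5-azacytidine is a cytidine analogue that traps DNA methyltransferases once it has been built into DNA, and it is also built into RNA. In tomato, ripening goes along with active loss of DNA methylation by the demethylase DML2, and fruit injected with 5-azacytidine ripens early in patches. DNA methylation was not measured in these libraries.

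Each library lists FPKM (fragments scaled by locus length and library size) for 22596 loci. The loci are named by position on 11 chromosomes, written WM97pbV1_Chr01 to WM97pbV1_Chr11 in the files, and on 23 scaffolds, and the files do not pair them with genes. Positions therefore stand in for names, and the products, exons, introns and UTRs of the loci were not analysed here. For the same reason the tissue labels could not be checked against marker genes. In bulk flesh, fewer cells of a type and less RNA per cell cannot be told apart. Libraries correlated at 0.994 to 0.996 (Pearson, log2(FPKM + 1), 15552 tested loci) within Mock or within 5_Aza, and at 0.971 to 0.973 between the groups, so each library was closer to those of its own label. Among loci with at least 10 FPKM the median coefficient of variation between replicates was 4.54% in Mock and 4.04% in 5_Aza. Read depth is unknown, and no counting interval can be given for single values. Stage flesh values were written with 6 significant digits and Mock, 5_Aza and rind values with 6 decimals. Levels of stage flesh beside the other groups may therefore carry a difference in quantification, which was not tested.

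Each 5_Aza library listed more loci above low levels than any Mock library. At least 1 FPKM was reached by 14953, 14982 and 14992 loci in the Mock libraries and by 15655, 15641 and 15589 loci in the 5_Aza libraries. The groups do not overlap, and the means were 14976 ± 20.3 and 15628 ± 34.8 loci (SD, n = 3). An exact two-sided permutation test gave p = 0.1, the smallest that 3 libraries against 3 allow. Loci listed at 0 numbered 4121, 4202 and 4396 in Mock and 3582, 3555 and 3630 in 5_Aza (exact permutation p = 0.1). Counts at 0 can depend on read depth, which is unknown here, and both counts are of FPKM as deposited. Summed FPKM were alike, 846199 to 849284 in Mock and 835208 to 839682 in 5_Aza.

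Large changes after 5_Aza were nearly all rises. Of 15552 tested loci 636 rose by at least 2-fold (4.09%) and 29 fell by as much (0.186%; limma, adjusted p under 0.05). By at least 4-fold 109 rose and 1 fell, and by at least 8-fold 31 rose. In all 636 risen loci every 5_Aza library was above every Mock library, and in all 29 fallen loci every one was below. A further 6 loci were at least 2-fold higher and 7 at least 2-fold lower without passing the test. Without the limit on size 29.5% of the loci rose and 13.3% fell. With median-of-ratios scaling, which sets the median ratio between libraries to 1, 21.3% rose and 22.4% fell, so rises made up 69.0% of the calls on FPKM as deposited and 48.8% with scaling. At 2-fold the balance held under both, with 546 rises (3.51%) and 48 falls (0.309%) after scaling. All 546 were among the 636, and all 29 falls were among the 48. No locus called under both scalings changed direction. The median log2 fold change over all loci was 0.07 as deposited and -0.01 after scaling, and as deposited the 1st and 99th percentiles were -0.63 and 1.76.

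**Figure D1:**
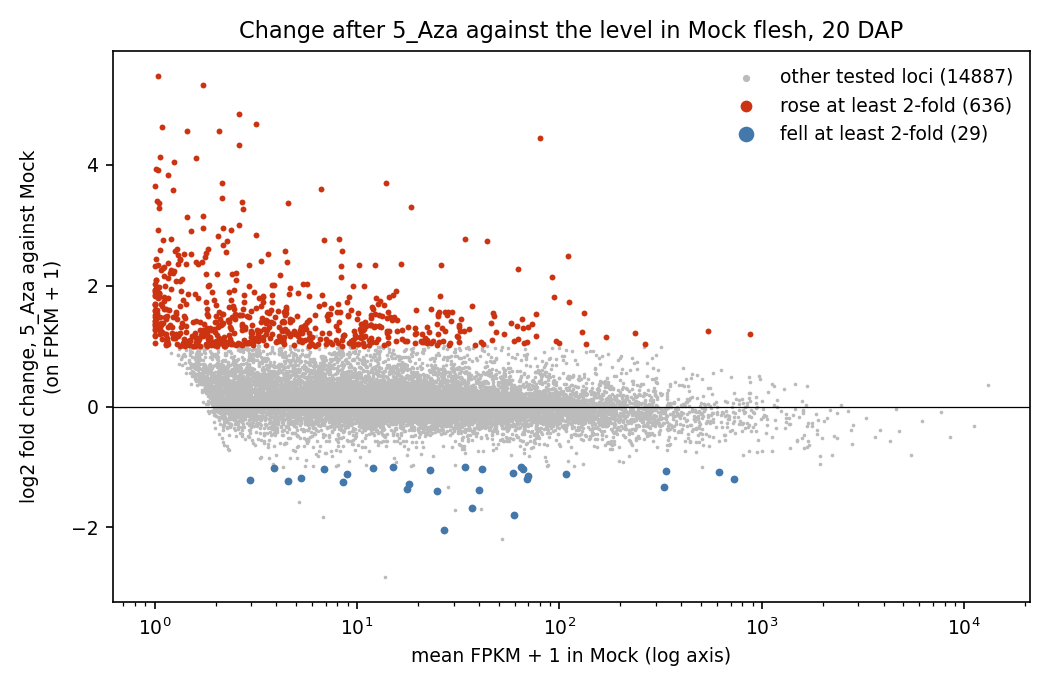
Log2 fold change of 5_Aza against Mock (vertical, on FPKM + 1) against mean FPKM + 1 in Mock (horizontal, log axis), 1 point per tested locus. Red points are the 636 loci with rises of at least 2-fold, most of them at low levels in Mock, and blue points the 29 that fell.

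The direction of change went with the level in Mock. Among the 1614 loci at 100 FPKM or more in Mock, 42.2% fell and 19.8% rose, and with scaling 58.4% fell and 12.7% rose. The median log2 fold change of these abundant loci was -0.07 as deposited and -0.17 after scaling. Among the 5398 loci of 1 to 10 FPKM, 31.2% rose and 4.45% fell, and with scaling 24.8% and 7.28%. Between 10 and 100 FPKM the prevailing direction depended on the scaling, with 26.9% rising and 14.4% falling as deposited and 17.2% and 26.9% after scaling. Rises of at least 2-fold made up 5.21% of the loci at 1 to 10 FPKM, 1.60% of those at 10 to 100 FPKM and 0.620% of those at 100 FPKM or more. These classes were set by the Mock values that also enter the fold change, so chance low values in Mock can raise the fold changes of the low classes.

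**Figure D2:**
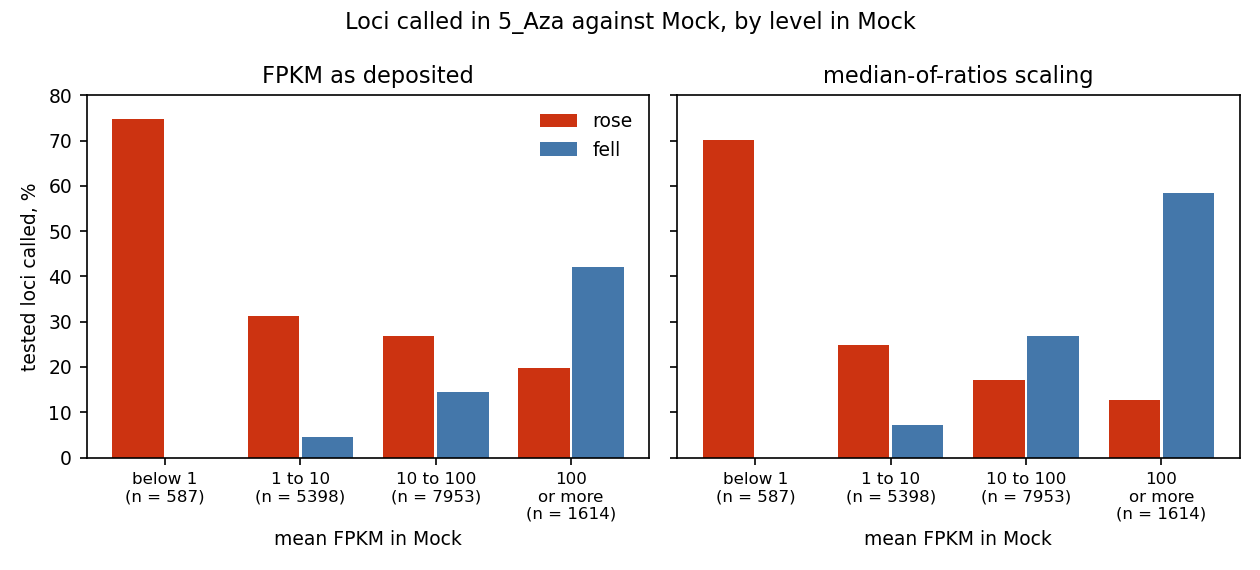
Percent of tested loci that rose (red) or fell (blue) after 5_Aza (limma, adjusted p under 0.05), by mean FPKM in Mock, with FPKM as deposited (left) and after median-of-ratios scaling (right). Rises prevail at 1 to 10 FPKM and falls at 100 FPKM or more under both, and loci below 1 FPKM largely passed the filter through 5_Aza, while the class of 10 to 100 FPKM turns with the scaling.

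Among loci near silence, many more crossed 1 FPKM upwards than downwards. Over all 22596 loci, with no filter and no test, 366 were below 1 FPKM in all 3 Mock libraries and at 1 FPKM or more in all 3 5_Aza libraries, and 12 showed the reverse. By median the 366 stood at 0.528 FPKM without and 1.87 FPKM with 5_Aza, and the highest group mean in 5_Aza was 68.4 FPKM. The 12 reached no more than 2.34 FPKM in Mock. With an upper level of 5 FPKM the counts were 38 and 0, and with 10 FPKM they were 14 and 0. Listed at 0 in all 3 Mock libraries and at 1 FPKM or more in all 3 5_Aza libraries were 24 loci, against 0 for the reverse. These counts are of FPKM as deposited. The median-of-ratios scaling divides Mock by 0.955 to 0.987 and 5_Aza by 1.03 to 1.05, and no crossings were counted after it.

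Of 7599 loci with a Mock mean below 1 FPKM, 587 passed the filter of 1 FPKM in 3 libraries, among them the 366 that reached it in 5_Aza alone. A share of rises over the 587 (218 by at least 2-fold) would therefore be no measure of the class. Without the filter 5048 such loci entered the fit and 235 of them rose by at least 2-fold (4.655%). Over all 20045 loci of that fit 24.8% rose and 9.79% fell, 3.26% and 0.155% by at least 2-fold. On the FPKM + 1 scale a locus below 1 FPKM cannot fall by 2-fold, so no count of falls is given for it.

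A pair of neighbouring loci on chromosome 2 had the largest rises in the comparison. The first, chr2:30433270-30433895, measured 0.103, 0 and 0 FPKM in the Mock libraries and 42.7, 41.3 and 51.4 FPKM in the 5_Aza libraries. By mean level it went from rank 18503 to rank 3765 of 22596 loci (log2 fold change 5.47 ± 0.10 SE; adjusted p = 1.01e-10 by limma). The second, chr2:30424331-30424897, measured 0.833, 0.543 and 0.833 FPKM in Mock and 67.5, 71.8 and 65.9 FPKM in 5_Aza (log2 fold change 5.32 ± 0.09 SE; adjusted p = 2.71e-11 by limma). Only 8.37 kb lie between them, with 0 other loci listed there. In stage flesh and rind the second was listed at 0 in every library used, and the group means of the first did not exceed 0.0932 FPKM.

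Loci that were weakly expressed in Mock also reached levels not seen in the other groups. At chr2:28214752-28219138 the Mock libraries held 1.67, 1.21 and 1.93 FPKM and the 5_Aza libraries 71.0, 73.4 and 75.8 FPKM (log2 fold change 4.85 ± 0.10 SE; adjusted p = 1.01e-10 by limma). Group means in stage flesh and rind lay between 0.464 FPKM in RF and 1.83 FPKM in R4_RF. At chr1:33006262-33007528 the values were 2.19, 2.78 and 1.498 FPKM in Mock and 76.1, 79.4 and 80.3 FPKM in 5_Aza (log2 fold change 4.68 ± 0.12 SE; adjusted p = 5.51e-10 by limma). The highest group mean elsewhere was 1.55 FPKM, in PD. Both loci thus had levels in 5_Aza that no group of the developmental series or rind came near.

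Among loci already expressed at 10 FPKM or more in Mock, the largest rise was at chr1:525449-526327. It stood at 81.7, 78.0 and 78.5 FPKM in Mock and at 1775, 1730 and 1759 FPKM in 5_Aza (log2 fold change 4.45 ± 0.03 SE; adjusted p = 1.70e-14 by limma). By mean level it moved from rank 2100 to rank 24 of all loci. The highest level elsewhere was 241 ± 15.9 FPKM in R2_RF (SD, n = 2), and the stage flesh groups lay between 0.846 and 11.7 FPKM. The next largest rise, at chr6:7824799-7825077, belongs to a locus that is abundant in rind. It measured 15.7, 13.5 and 9.40 FPKM in Mock and 175, 166 and 186 FPKM in 5_Aza (log2 fold change 3.70 ± 0.16 SE; adjusted p = 1.04e-06 by limma). In rind it reached 14103 ± 825 FPKM in R4_CT, 3082 ± 169 in R4_RF and 34276 ± 488 in R2_RF, and in flesh of 0 DAP (PD) 4599 ± 152. CT flesh, labelled with the age of Mock, held 128 ± 9.24 FPKM, which lies above the Mock level and near that of 5_Aza.

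**Figure D3:**
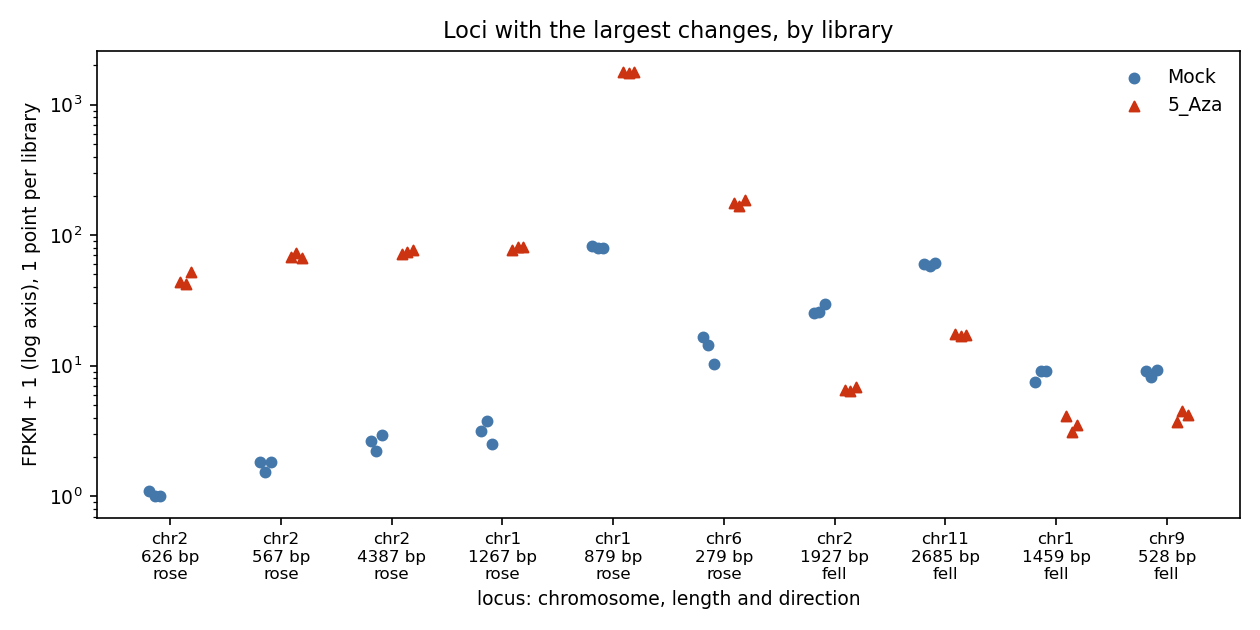
FPKM + 1 (log axis) of the 10 loci with the largest rises and falls overall and per class of Mock level, 1 point per library, Mock as blue circles and 5_Aza as red triangles. Each locus is labelled with its chromosome, its length and its direction. At each the 3 Mock and 3 5_Aza values stand apart, which the choice of these loci required.

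The falls were smaller. The largest, at chr2:5131165-5133091, went from 24.2, 24.8 and 28.8 FPKM in Mock to 5.46, 5.36 and 5.82 FPKM in 5_Aza (log2 fold change -2.04 ± 0.08 SE; adjusted p = 1.04e-08 by limma). This locus was very abundant in young fruit, with 8334 ± 296 FPKM in SW (SD, n = 3), and fell away through BW (1485 ± 11.3) and CT (146 ± 34.5) to RF (14.4 ± 2.34). The 5_Aza level was thus below every stage mean. At chr11:7321443-7324127 the values were 58.8, 56.9 and 59.9 FPKM in Mock and 16.5, 15.9 and 16.2 FPKM in 5_Aza (log2 fold change -1.79 ± 0.05 SE; adjusted p = 6.30e-10 by limma). Before 20 DAP its stage means were 0.488 FPKM or less, and it stood at 6.17 ± 0.76 FPKM in CT and 43.6 ± 0.82 FPKM in R4_RF (n = 2), but at 0.0503 FPKM in R2_RF.

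Among weakly expressed loci the largest falls were at chr1:29394475-29395933 and chr9:34486131-34486658. The first went from 6.496, 8.04 and 8.06 FPKM to 3.14, 2.08 and 2.53 FPKM (log2 fold change -1.26 ± 0.13 SE; adjusted p = 1.56e-05 by limma). No stage or rind group held more than 0.0979 FPKM of it. The second went from 8.05, 7.27 and 8.33 FPKM to 2.70, 3.52 and 3.16 FPKM (log2 fold change -1.11 ± 0.10 SE; adjusted p = 7.97e-06 by limma), and among the stages it was highest in CT, at 4.05 ± 0.57 FPKM. The fall at the first locus is therefore relative to a Mock level that CT flesh, with the same age label, did not show.

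Risen loci tended to lie next to one another. Among the 636 loci risen at least 2-fold 137 (21.5%) had a previous or next tested locus that rose as well, against 7.91% of all tested loci. Split by level, the shares were 20.3% against 7.48% at 1 to 10 FPKM in Mock and 13.1% against 7.55% at 10 FPKM or more. Of the 137, 62 were below 1 FPKM in Mock, where the shares were 28.4% against 17.7%. Loci of that class largely passed the filter through 5_Aza, so silent loci that did not rise were mostly passed over as neighbours. Without the filter 17.5% of the risen loci had a risen neighbour. No share over all loci of that fit is given here, so the 17.5% cannot be set against a background. Within 10 kb a risen neighbour was found for 10.1% of the risen loci and 3.61% of all tested loci. By Mock level these shares were 16.1% against 8.86% below 1 FPKM and 8.19% against 3.35% at 1 to 10 FPKM. At 10 FPKM or more they were close, at 4.38% (6 of 137) against 3.44%. The risen loci formed 499 single loci, 52 pairs, 8 stretches of 3, 1 of 4 and 1 of 5. Neighbouring loci can be copies of one gene, and whether reads were split between near-identical copies was not analysed here.

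The stretch with the most risen loci, chr4:23288619-23322606, spans 34.0 kb and holds 5 risen loci among 6 listed. Their means were 0.423 to 3.64 FPKM in Mock and 6.35 to 17.1 FPKM in 5_Aza, with log2 fold changes of 1.41 to 2.96 (limma, highest adjusted p = 3.06e-07). In PD the first of them stood at 99.9 FPKM. All 5 were expressed in R2_RF rind, at 7.72 to 15.45 FPKM, and lower in R4_RF, at 0.199 to 3.53 FPKM. The stretch of 4 on chromosome 6, chr6:7779609-7869505, includes the abundant rind locus named above. Its last member, chr6:7869239-7869505, rose from 0.970, 1.58 and 0.880 FPKM to 33.2, 24.2 and 23.6 FPKM (log2 fold change 3.71 ± 0.15 SE; adjusted p = 1.32e-08 by limma), and PD flesh held 2918 FPKM of it. On chromosome 2 the 3 consecutive tested loci of chr2:37226317-37272975, among 5 listed, rose by log2 fold changes of 1.44 to 4.56.

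Another 3 of the 8 stretches of 3 differed in where else they are expressed. The loci of chr9:29320581-29328350, packed into 7.77 kb, rose from means of 0 to 0.467 FPKM in Mock to 2.34 to 4.23 FPKM in 5_Aza (limma, highest adjusted p = 4.76e-05). No stage or rind group exceeded a mean of 0.545 FPKM there. The 3 tested loci of chr7:810712-853311, among 4 listed, rose from 0 to 0.161 FPKM to 2.87 to 15.5 FPKM. Elsewhere their group means were 0.623 FPKM or less. By contrast the 3 tested loci of chr10:1520644-1567683, among 5 listed, rose from 0.0983 to 5.46 FPKM to 6.42 to 19.3 FPKM. Of these, 2 were also expressed in CT flesh (6.37 and 31.6 FPKM) and R4_RF rind (38.3 and 2.46 FPKM). Stretches on chromosomes 7 and 9 were thus seen in 5_Aza flesh at levels found in none of the other groups.

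**Figure D4:**
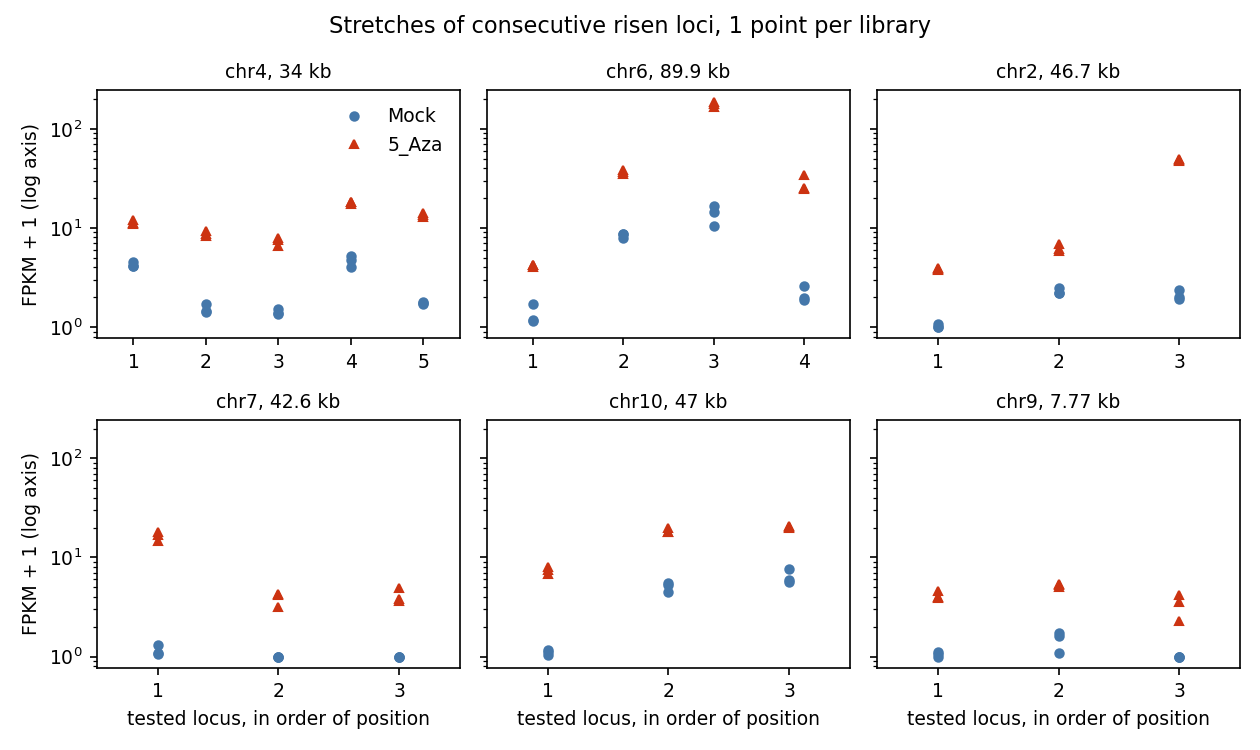
FPKM + 1 (log axis) of the tested loci in 6 stretches of consecutive loci that rose by at least 2-fold, in order of position, 1 point per library, Mock as blue circles and 5_Aza as red triangles. Panel titles give the chromosome and the span, and in each of the 21 loci the 5_Aza values lie above the Mock values.

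Rises were spread over the genome and were not more frequent where loci are sparse. Tested loci were ranked by the number of loci that start within 500 kb on either side. In the sparsest quartile (0 to 76 such loci) 3.92% rose by at least 2-fold, then 4.07%, 3.51%, and 4.80% in the densest (121 to 192). At 1 to 10 FPKM in Mock the sparsest and densest quartiles gave 5.07% and 6.31%, and at 10 FPKM or more 1.39% and 1.78%. By chromosome the share ran from 3.24% on chromosome 8 to 5.07% on chromosome 7. Of the 29 falls 11 were in the sparsest quartile, 0.275% of the loci there against 0.157% in the densest.

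Short loci rose more often than long ones. Rises of at least 2-fold were found for 6.86% of tested loci up to 400 bp, 6.84% of those of 400 bp to 2 kb, 3.13% of those of 2 to 5 kb and 1.44% of longer ones. Loci over 5 kb were more abundant in Mock, with a median of 18.1 FPKM against 9.73 FPKM for loci up to 400 bp. Within 1 to 10 FPKM in Mock the shares were still 6.41%, 7.34%, 4.598% and 1.90% in order of length, and at 10 FPKM or more 2.30%, 2.68%, 1.12% and 0.509%. These lengths are the spans from start to end as listed.

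As a set, risen loci at 1 FPKM or more in Mock had medians in rind of the same age close to those in 5_Aza. Those below 1 FPKM did not. Levels in R4_CT and 5_Aza were not compared locus by locus. Over all 636 the median was 2.16 FPKM in Mock, 9.56 FPKM in 5_Aza and 8.59 FPKM in R4_CT, while over all tested loci the medians were 15.7, 17.3 and 15.95 FPKM. At 1 to 10 FPKM in Mock the 281 risen loci had a median of 10.6 FPKM in 5_Aza and 10.6 FPKM in R4_CT, and all 5398 tested loci of that level had 5.00 and 5.40 FPKM. At 10 FPKM or more the 137 risen loci had medians of 58.1 FPKM in 5_Aza and 51.0 FPKM in R4_CT, against 34.4 and 30.0 FPKM over that class. Below 1 FPKM the 218 risen loci had medians of 2.875 FPKM in 5_Aza and 1.483 FPKM in R4_CT. Of the 6 single loci with the rises named first, 5 stood at 1.94 FPKM or less in R4_CT. In R2_RF the median of the 636 was 6.57 FPKM. In R4_RF, at 2.575 FPKM, and in the stage flesh, at 1.54 FPKM in CT to 2.86 FPKM in PD, it was near the Mock level. The loci were chosen for being low in Mock, so these medians are levels set side by side, with no test between groups.

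**Figure D5:**
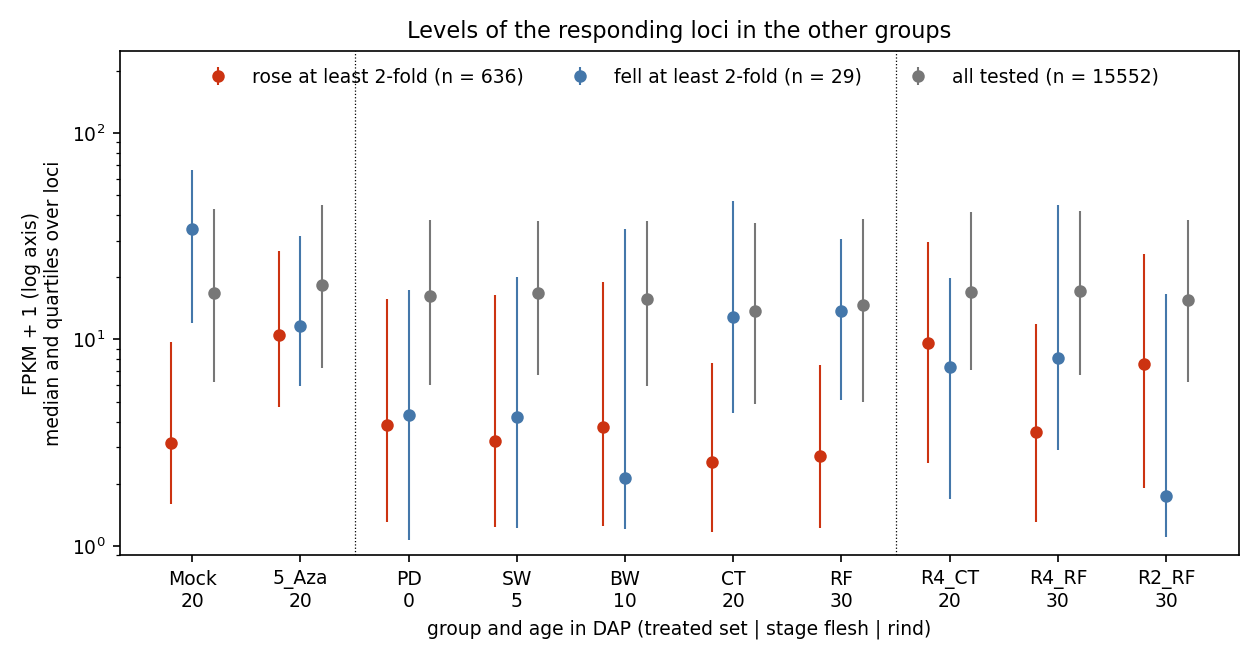
Median and quartiles over loci of the group mean FPKM + 1 (log axis) in each group, for the 636 risen loci (red), the 29 fallen loci (blue) and all 15552 tested loci (grey). By median the risen loci are higher in 5_Aza, R4_CT and R2_RF than in Mock, stage flesh and R4_RF. In every group their median is below that of all tested loci. The fallen loci are lowest in BW and R2_RF.

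The risen loci also stood apart in differences between groups that share no library with the comparison. Sharing no library does not free the differences with CT from the choice of loci. The risen loci were picked for being low in Mock, and CT is flesh with the same age label. How much of these differences follows from that choice was not tested. From R4_CT to R4_RF, that is from 20 to 30 DAP in rind R4, 299 of the 636 risen loci (47.0%) were at least 2-fold lower and 22 at least 2-fold higher, while over all tested loci 6.205% were lower and 3.14% higher. Split by Mock level the lower share was 48.0% against 8.93% at 1 to 10 FPKM and 53.3% against 3.46% at 10 FPKM or more. Below 1 FPKM the contrast was weaker, at 41.7% against 25.9%. Between the rinds of 30 DAP, 269 risen loci (42.3%) were at least 2-fold higher in R2_RF than in R4_RF, against 7.41% of all tested loci. By Mock level the higher share was 41.6% against 9.985% at 1 to 10 FPKM and 43.8% against 4.70% at 10 FPKM or more. Below 1 FPKM the contrast was again weaker, at 42.2% against 27.9%. At least 2-fold lower in R2_RF were 8.65% of the risen loci against 11.8%, but at 10 FPKM or more 19.0% against 14.75%. From BW to CT, 10 to 20 DAP in stage flesh, 213 (33.5%) were at least 2-fold lower, against 10.2% of all tested loci. At 10 FPKM or more in Mock the shares were 40.1% against 5.53%, but below 1 FPKM the 22.02% of risen loci did not exceed the 28.1% of all tested loci there, most of which had passed the filter through 5_Aza. From CT to RF the risen loci changed more often in both directions. At least 2-fold higher were 13.5% of them and lower 12.3%, against 5.62% and 4.12% of all tested loci. These shares are of group means with 2 or 3 libraries each and carry no test. R4_RF enters both rind differences, and CT both differences in stage flesh.

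Where risen loci were expressed in stage flesh, 10 DAP was over-represented as their highest stage. Of 499 risen loci with at least 1 FPKM in a stage group, 128 (25.7%) were highest in BW, against 10.7% of 14773 tested loci, and 25 (5.01%) were highest in CT, against 10.2%. The excess in BW was 32.6% against 10.7% at 10 FPKM or more in Mock and 25.2% against 10.6% at 1 to 10 FPKM. Below 1 FPKM it was smaller, at 18.2% against 14.1%. The lower share in CT was limited to loci at 10 FPKM or more in Mock, with 5.19% against 13.5%. At 1 to 10 FPKM it was 5.91% against 4.68%, and below 1 FPKM 2.73% against 1.94%. CT carries the age label of Mock, where risen loci were chosen for being low, and the part of that choice in these shares was not tested. PD was the highest stage for 34.5% and 33.8%. Of the 218 risen loci below 1 FPKM in Mock, 117 (53.7%) reached 1 FPKM in R4_CT, 116 (53.2%) in R2_RF, 36 (16.5%) in CT and 34 (15.6%) in RF. Over all 587 tested loci of that level the shares were 66.3%, 62.0%, 31.2% and 29.8%, with the groups in the same order. Most of the 587 had passed the filter through 5_Aza. The risen loci were lower in Mock, at a median of 0.267 FPKM against 0.693 FPKM. The 2-fold limit on FPKM + 1 favours such loci, so the lower shares among risen loci are no separate result. No stage or rind group reached 1 FPKM at 69 of the 218 (31.65%) and 100 of the 587 (17.0%), with the same limit on reading. Listed at 0 in every stage and rind library used were 8 of the 218 and 9 of the 587.

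The 29 fallen loci were mostly highest late in stage flesh. In stage flesh 15 of the 28 with at least 1 FPKM in a stage (53.6%) were highest at 30 DAP and 6 at 20 DAP, against 26.1% and 10.2% of all tested loci. At 10 FPKM or more in Mock 13 of 22 were highest at 30 DAP (59.1% against 33.0%). There 20 DAP showed no excess, with 3 of 22 (13.6% against 13.5%). At 1 to 10 FPKM 2 of 6 were highest at 30 DAP and 3 at 20 DAP. Their median was 33.3 FPKM in Mock, 10.6 FPKM in 5_Aza, 11.9 FPKM in CT and 12.8 FPKM in RF, and 0.7501 FPKM in R2_RF. From 10 to 20 DAP in stage flesh 18 of the 29 (62.1%) were at least 2-fold higher, against 5.58% of all tested loci, and 14 (48.3%) were at least 2-fold lower in R2_RF than in R4_RF, against 11.8%. These loci were chosen for being high in Mock and low in 5_Aza, so the order of those groups is set by the choice. CT flesh carries the age label of Mock, and how far its difference from BW follows from that choice was not tested. Single loci lay far apart, as at chr2:5131165-5133091 with 146 FPKM in CT.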

How the data were processed

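Total RNA of flesh or rind was extracted with Trizol and made into Illumina libraries, per the labels' protocols. Per the submitters' processing notes the tools included fastp, HISAT2 and SAMtools 1.5. Which program gave the locus values, and on which annotation, is not given in the sources used here. Per the file headers the authors deposited FPKM, a unit scaled for length and library size that keeps no depth.

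Libraries were grouped by title. The 3 AP libraries and PD replicate 3 were not used, since their values do not match the loci of the other files. In CT replicate 1 a block of 50 loci with a correlation to its replicates under 0.8 was left out. No 2 loci overlap in coordinates.

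Loci with at least 1 FPKM in at least 3 of the 6 libraries entered a limma fit (version 3.58.1, under R 4.3.3) of log2(FPKM + 1), with trended, robust empirical Bayes and 4 residual degrees of freedom. Benjamini-Hochberg adjustment ran over all tested loci, and calls needed an adjusted p under 0.05. Fold changes on this scale understate changes of low loci. The fit was tested on simulated data. Named loci are the 2 largest rises and falls overall and per Mock level class with replicates that do not overlap and at least 10 FPKM in the higher group (5 FPKM for rises below 1 FPKM and falls at 1 to 10 FPKM), and, among stretches of at least 3 consecutive risen loci, the 6 with the most loci, ties going to the larger summed log2 fold change. The comparison, lists and rules were chosen with earlier results of these data known. Figures were drawn with matplotlib 3.10.9. Scaled shares per level class, counts of loci crossing 1 FPKM and differences within 1 number format were added after seeing the data.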

Additional observations from a re-analysis of the deposited data

How the results depend on the processing

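All 10 named loci kept their direction and stayed past the threshold in the 120 values recomputed under the alternatives. They were chosen as the largest called changes in the same libraries, so this outcome was largely set by the choice. Leaving out 1 library at a time gave 627 to 653 rises and 30 to 34 falls of at least 2-fold. Replicate numbers did not pair the libraries: deviations of same-numbered Mock and 5_Aza libraries correlated at 0.0639, -0.0473 and -0.0262, and not every library correlated best with its own number. A fit with the replicate number as a block gave 4212 rises and 1865 falls, with 636 and 29 of at least 2-fold. Median-of-ratios scaling gave 3479 falls, 48 of at least 2-fold, and shares of 2-fold rises of 1.11% at 10 FPKM or more, 3.94% in the densest quartile and 1.03% over 5 kb. A pseudocount of 0.1 gave 353 rises below 1 FPKM in Mock, 54 falls of at least 2-fold, 25.8% of risen loci with a risen neighbour, and 2-fold rises of 5.87% and 6.77% in the sparsest and densest quartiles, 10.2% up to 400 bp and 2.64% over 5 kb. A filter of 5 FPKM left 409 rises of at least 2-fold, 41 below 1 FPKM in Mock, 13.9% with a risen neighbour, 3.26% and 3.92% in these quartiles and 0.957% over 5 kb, since it removes weakly expressed loci. No filter gave 17.5% with a risen neighbour, 3.14% and 3.81% in the quartiles and 4.42% up to 400 bp. Counting neighbours within 10 kb only gave 10.1%. The neighbour shares under a changed pseudocount or filter have no share over all loci beside them. The causes of the other shifts were not tested. Leaving out overlapping loci was not run, as there are none. Unknown depth leaves values near 0 without an error of their own.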
